A study of Mus musculus with 10 samples.

Results

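The peaks described here are the open chromatin regions of mouse embryonic stem cells that lie far from any H3K4me3 peak. They were selected on 2 measured values, a width under 1000 bp in the ATAC-seq peak list and a gap of over 200 kb to the nearest H3K4me3 ChIP-seq peak on the same chromosome. Of the 164823 ATAC peaks under 1000 bp on chromosomes 1 to 19, 15548 met both conditions, which was 9.43% of them. The stretches of the autosomes that lie over 200 kb from every H3K4me3 peak are called deserts below. The study mapped long-range chromatin contacts and used ATAC-seq and ChIP-seq as companion data. Both lists come from the F123 line, an F1 hybrid of Mus musculus castaneus and S129/SvJae mice. Per the study, the line was kept on irradiated CF1 mouse embryonic fibroblasts and passaged once on gelatin without feeders before harvest. All samples were untreated cells of this 1 line, with 2 biological replicates of ATAC-seq from 100000 cells each and 2 of H3K4me3 ChIP-seq from 2000000 cells each. Each assay is held as 1 list of replicated peaks, so no value has a spread over replicates and the depth of the libraries is unknown. Intervals below are 95% intervals and cover counting error only, since neighbouring regions and members of a gene cluster are not independent.

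H3K4me3, trimethylation of lysine 4 on histone H3, marks the start sites of active and poised genes. ATAC-seq uses the Tn5 transposase to cut DNA that is not wrapped tightly, so its peaks mark promoters, enhancers and sites bound by insulator proteins such as CTCF. A long stretch without H3K4me3 therefore holds no gene start with a called peak of this mark in these cells, but RNA was not measured here, and the genes in the deserts are described only by their distance from the mark. The large receptor families of the nose, the defensins and the proteins of the skin barrier are known to lie in clusters that are used in 1 or a few cell types.

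To show what these peaks look like in sequence, windows of 200 bases around peak midpoints were read from the RefSeq mouse sequence (GRCm38.p6, plus strand). The first set holds the 3 members with a CTCF motif that lie farthest from H3K4me3, followed by the 2 farthest whose central 32 bases occur only once and that lie outside the first desert of chromosome 14. CTCF binds DNA through zinc fingers and holds the ends of chromatin loops. Its motif was searched as CCANNAGNNGGC on both strands, and capitals mark the match. The windows are chr14:3039663-3039862, chr14:3513703-3513902, chr14:4174446-4174645, chr6:75799338-75799537 and chr12:94054992-94055191. The second window lies in the gene model Gm3005 and in the pseudogene Gm11109, and the other windows lie between genes. The last window is wider than its peak, which ends at 94055151. Its match, chr12:94055146-94055157, lies partly outside the peak.
CTCF window 1: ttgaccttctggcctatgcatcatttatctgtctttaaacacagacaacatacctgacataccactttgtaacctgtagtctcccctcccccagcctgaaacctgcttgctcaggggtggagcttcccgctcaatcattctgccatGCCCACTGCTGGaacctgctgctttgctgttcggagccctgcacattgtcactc
CTCF window 2: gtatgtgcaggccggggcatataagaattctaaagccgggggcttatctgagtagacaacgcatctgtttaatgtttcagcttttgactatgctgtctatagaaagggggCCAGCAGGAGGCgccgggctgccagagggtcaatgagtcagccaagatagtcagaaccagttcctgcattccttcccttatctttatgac
CTCF window 3: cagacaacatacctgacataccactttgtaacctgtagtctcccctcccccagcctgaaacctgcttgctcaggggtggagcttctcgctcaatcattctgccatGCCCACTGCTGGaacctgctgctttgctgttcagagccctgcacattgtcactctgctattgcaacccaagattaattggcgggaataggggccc
CTCF window 4: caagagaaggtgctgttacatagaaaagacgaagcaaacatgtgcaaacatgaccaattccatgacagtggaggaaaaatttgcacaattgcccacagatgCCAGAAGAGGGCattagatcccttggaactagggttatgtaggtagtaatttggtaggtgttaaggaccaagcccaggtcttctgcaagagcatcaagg
CTCF window 5: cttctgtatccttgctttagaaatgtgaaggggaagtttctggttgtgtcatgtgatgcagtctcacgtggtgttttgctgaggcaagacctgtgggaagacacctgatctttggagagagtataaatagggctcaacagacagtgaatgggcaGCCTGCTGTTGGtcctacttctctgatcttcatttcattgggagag

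The next set holds the 2 members farthest from H3K4me3 with the composite POU-SOX motif, which OCT4 (the product of Pou5f1) and SOX2 bind as a pair in pluripotent cells. The motif was searched as TTGTNATGCA on both strands, and capitals mark the match. The windows are chr1:142093852-142094051 and chr8:97331627-97331826. Both lie between genes, and the central 32 bases of each occur only once.
POU-SOX window 1: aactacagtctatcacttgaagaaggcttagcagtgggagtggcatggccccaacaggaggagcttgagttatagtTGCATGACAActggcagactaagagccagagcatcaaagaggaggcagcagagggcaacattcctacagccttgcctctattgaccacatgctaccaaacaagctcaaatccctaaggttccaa
POU-SOX window 2: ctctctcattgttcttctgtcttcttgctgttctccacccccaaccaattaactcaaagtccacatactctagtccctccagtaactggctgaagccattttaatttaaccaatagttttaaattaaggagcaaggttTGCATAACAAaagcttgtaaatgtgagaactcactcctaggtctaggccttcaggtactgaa

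The last set also shows repeated sequence. The first 2 windows are those of the 2 members farthest from H3K4me3, chr14:3015393-3015592 between genes and chr14:3032594-3032793 in an intron of Gm2888. The first of them also holds the YY1 letters named next, left in lower case. The other 2 windows, chosen after the values were seen, hold the motif AAGATGGCG (capitals, both strands searched) of the zinc finger protein YY1 and lie farthest from H3K4me3 outside the first desert of chromosome 14. These are chr6:79968504-79968703, in the antisense gene Gm4409, and chr14:82043494-82043693, between genes. The 2 YY1 windows lie on different chromosomes and share a run of 49 identical bases.
Farthest window 1: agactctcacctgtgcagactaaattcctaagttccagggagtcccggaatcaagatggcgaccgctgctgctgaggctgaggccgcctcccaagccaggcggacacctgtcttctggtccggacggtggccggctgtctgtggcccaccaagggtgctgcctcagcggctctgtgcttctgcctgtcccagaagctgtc
Farthest window 2: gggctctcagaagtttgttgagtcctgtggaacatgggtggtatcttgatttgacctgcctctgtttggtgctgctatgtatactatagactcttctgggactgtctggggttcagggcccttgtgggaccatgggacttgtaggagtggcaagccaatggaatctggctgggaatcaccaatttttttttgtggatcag
YY1 window 1: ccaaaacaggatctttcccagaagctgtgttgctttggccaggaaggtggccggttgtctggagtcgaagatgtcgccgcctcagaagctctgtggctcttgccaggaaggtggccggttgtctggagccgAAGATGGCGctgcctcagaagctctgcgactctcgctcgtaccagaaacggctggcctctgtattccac
YY1 window 2: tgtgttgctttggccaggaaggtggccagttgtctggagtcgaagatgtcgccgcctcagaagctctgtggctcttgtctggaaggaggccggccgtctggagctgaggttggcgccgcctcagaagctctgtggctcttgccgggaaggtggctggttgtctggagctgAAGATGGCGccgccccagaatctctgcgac

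Desert peaks were narrow. Their median width was 240 bp (interval 237 to 243), with quartiles at 170 and 384 bp and the narrowest at 73 bp. The 10th and 90th percentiles were 136 and 581 bp, and 2243 members (14.4%) were 500 bp or wider. The peaks under 1000 bp that overlapped an H3K4me3 peak were wider, with a median of 476 bp (471 to 481). Away from the mark the median rose slowly with distance, from 222 bp (221 to 224) at 0 to 10 kb to 229 bp (227 to 230) at 10 to 50 kb and 233 bp (230 to 235) at 50 to 200 kb. The desert median was above that of the peaks at 10 to 200 kb in 15 of the 19 autosomes. This order held for all peaks together but not for peaks in sequence that occurs once, as given below.

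Deserts were poorer in open chromatin than the rest of the genome. The 1192 deserts held 573.8 Mb of known sequence, 23.9% of the known bases of the autosomes, and 27.1 peaks per Mb. The remaining sequence held 81.9 peaks under 1000 bp per Mb, so that the density in the deserts was 0.331 of that elsewhere. The remaining sequence includes the H3K4me3 peaks themselves, where 30106 ATAC peaks gave 638 per Mb. The rule keeps such peaks out of deserts, so it fixes part of this difference. The same holds for the comparisons by autosome, spacing and coverage below. At 50 to 200 kb from the mark the density was 42.6 per Mb. The density was lower in the deserts of all 19 autosomes. It lay between 21.3 per Mb on chromosome 19 and 30.8 per Mb on chromosome 14, and the rest of the sequence lay between 70.9 per Mb on chromosome 3 and 94.8 per Mb on chromosome 11, so the 2 ranges did not overlap.

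**Figure D1:**
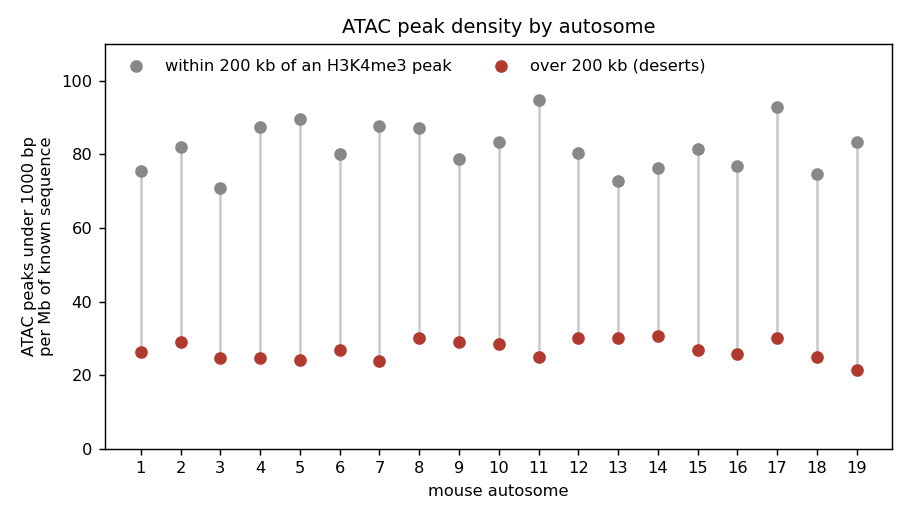
Density of ATAC peaks under 1000 bp (peaks per Mb of known sequence, vertical axis) for each mouse autosome (horizontal axis), for deserts (red) and for sequence within 200 kb of an H3K4me3 peak (grey). Every red point, from 21.3 to 30.8, lies below every grey point, from 70.9 to 94.8. The grey points include ATAC peaks that overlap H3K4me3, which the rule keeps out of deserts.

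Within the deserts the density fell further up to 1000 kb. It was 30.8 peaks per Mb at 200 to 300 kb from H3K4me3 (5560 members), 26.8 at 300 to 500 kb (5024 members), 23.8 at 500 to 1000 kb (3870 members) and 25.5 beyond 1000 kb (1094 members). Of the last class 253 members lay in the first desert of chromosome 14, described below, and without that desert the class held 21.5 per Mb. Peaks were then split by how often their sequence occurs. Peaks whose central 32 bases occur once on chromosomes 1 to 19, X and Y fell from 83.8 per Mb at 0 to 10 kb to 32.2 at 50 to 200 kb, 20.7 at 200 to 300 kb and 11.2 beyond 1000 kb. Peaks whose central 32 bases occur more than once, called repeated below, varied less across the classes away from the mark, with 12.8 per Mb at 0 to 10 kb, 10.4 at 50 to 200 kb, 10.1 at 200 to 300 kb and 14.3 beyond 1000 kb. Peaks under 1000 bp that overlap H3K4me3 had 614.6 per Mb of the first kind and 23.0 of the second. Without the first desert of chromosome 14 the class beyond 1000 kb held 12.1 per Mb of the first kind and 9.43 repeated. The desert density was 0.237 of that elsewhere for peaks in sequence that occurs once and 0.895 of it for repeated peaks. The density elsewhere again includes the peaks that overlap H3K4me3.

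**Figure D2:**
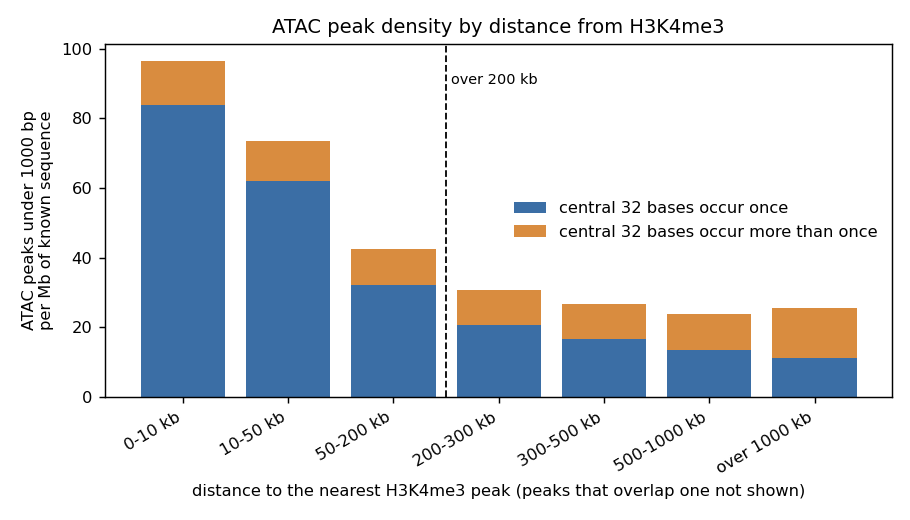
ATAC peaks under 1000 bp per Mb of known sequence (vertical axis) by distance to the nearest H3K4me3 peak (horizontal axis), split into peaks whose central 32 bases occur once (blue) and more than once (orange). The blue part falls from 83.8 to 11.2 per Mb, and the orange part lies between 10.1 and 14.3 per Mb in every class shown.

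Neighbouring desert peaks were far apart. Between the 14477 pairs of neighbours within a desert the median gap was 19589 bp (18982 to 20157), with quartiles at 5998 and 46321 bp and a longest gap of 1222 kb. The median gap between neighbouring peaks outside the deserts was 5504 bp (5456 to 5553). Gaps under 1000 bp made up 9.66% of the gaps in deserts and 18.5% of those outside. Peaks also covered less of the sequence, 0.824% of the known desert bases against 2.68% elsewhere.

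Nearly every long desert held open chromatin. The median desert was 279 kb long, with quartiles at 105 and 657 kb, and 170 deserts had 1 Mb or more of known sequence. These 170 held 282 Mb and 6890 members, 44.3% of all. No member was found in 121 deserts, but only 5 of these had 100 kb or more of known sequence, and the longest of them had 131 kb. Among the 381 deserts with 500 kb or more of known sequence the median density was 24.2 members per Mb, with quartiles at 19.7 and 30.3, a lowest value of 6.21 and a highest of 108. The median member lay 364 kb from H3K4me3, and 1094 members (7.04%) lay over 1 Mb away.

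The base composition of desert peaks differed from that of the sequence around them. The median GC content of the 200-bp window was 49.5%, while the known desert sequence had 38.6% and the rest of the known autosomal sequence 43.0%. Peaks at 10 to 200 kb from H3K4me3 had a median of 51.0%, and the desert median was lower in all 19 autosomes. No CpG was found in the window of 24.2% of the members (23.5 to 24.9) and of 15.0% of the peaks at 10 to 200 kb (14.8 to 15.3).

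Repeated sequence held a large share of the desert peaks. The central 32 bases occurred more than once for 5977 members, 38.4% (37.7 to 39.2), and 10 or more times for 26.1%. The repeated share was 18.8% (18.50 to 19.04) for peaks at 10 to 200 kb and 3.61% (3.40 to 3.82) for peaks under 1000 bp that overlap H3K4me3, and it was higher in deserts than at 10 to 200 kb in all 19 autosomes. Deserts themselves are richer in repeats, with a repeated share of 21.7% (21.5 to 22.0) at points set every 5 kb in the deserts and 13.4% (13.3 to 13.5) at such points elsewhere. The share among H3K4me3 peaks was 2.98% (2.80 to 3.17). How reads that match several places were handled in either assay is not given in the sources used here. The part of read placement in the lack of H3K4me3 peaks and in the presence of ATAC peaks over repeats was not tested. Peaks whose other copies are not identical over the central 32 bases count as occurring once. Among peaks that occur once, on average 31.2% of the window bases were masked as repeats in deserts and 21.1% at 10 to 200 kb. The median GC content of these peaks was 48.0% in deserts and 51.0% at 10 to 200 kb. The part of base composition in the motif shares below was not tested.

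Peak width followed the number of copies. Members whose central 32 bases occur once had a median width of 225 bp (221 to 228), while peaks of this kind at 10 to 200 kb had 227 bp (226 to 228). The desert median was the higher of the 2 in 7 of the 19 autosomes. Repeated members had a median of 269 bp (265 to 275), and the 943 members with 1000 or more copies had 453 bp (420 to 485), a GC content of 63.5% and 11 CpG in the 200-bp window. At 10 to 200 kb the 2019 peaks with 1000 or more copies had a median width of 322 bp (301 to 343). Among repeated members 21.4% were 500 bp or wider, and among the others 10.1%.

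**Figure D3:**
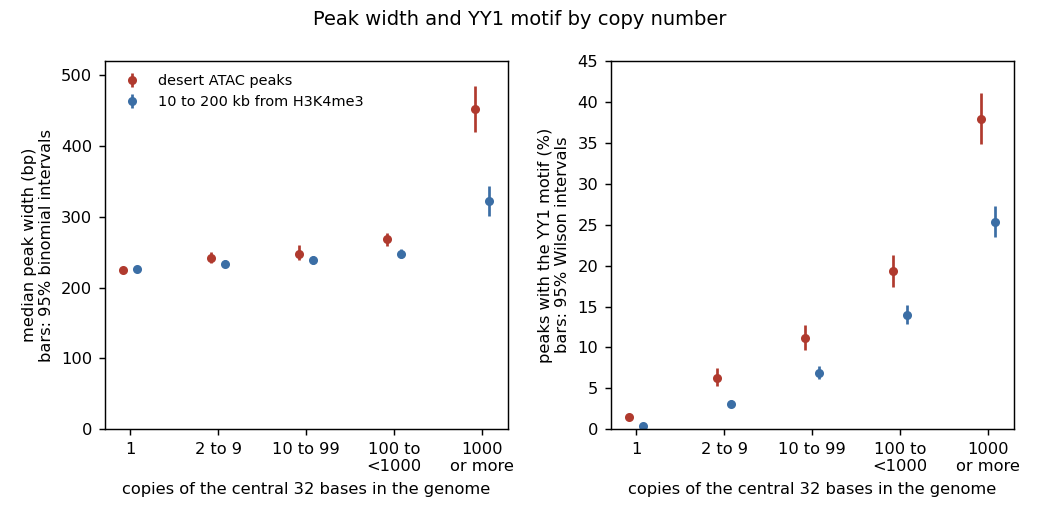
Median peak width in bp (left) and share of peaks with the YY1 motif in percent (right) by the number of copies of the central 32 bases (horizontal axis), for desert peaks (red) and for peaks at 10 to 200 kb from H3K4me3 (blue), with 95% intervals. Desert peaks reach 453 bp and 37.96% in the class of 1000 or more copies, and start from 225 bp and 1.51% at 1 copy.

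The CTCF motif was less frequent in desert peaks than in peaks at 10 to 200 kb from the mark. The background share, over all autosomal ATAC peaks under 1000 bp, was 10.5%. In the deserts 1172 members held it in the 200-bp window, 7.54% (7.13 to 7.96), and among peaks at 10 to 200 kb 11.5% did (11.3 to 11.7). The share was 14.4% (14.1 to 14.8) at 0 to 10 kb, and the peaks under 1000 bp that overlap H3K4me3 were below the desert share at 4.36% (4.13 to 4.59). The desert share was the lower in all 19 autosomes, also among peaks in sequence that occurs once, where it was 8.59% (8.04 to 9.17) against 11.3% (11.0 to 11.5). The motif was nevertheless 15.8 times as frequent as in the 2868484 known windows of 200 bp that tile the deserts, of which 0.478% held it. Matches lay near the midpoint, since of the 1315 members with a match in 400 bp 1001 had it in the central 100 bp. Members with the motif were narrow, with a median width of 178 bp (175 to 181) against 250 bp (247 to 253) without it. The share was highest at 150 to under 200 bp (15.3%) and lowest at 500 bp and wider (1.69%). The window was 200 bp at every width, so matches in the outer parts of wider peaks were not counted. How far this sets the fall with width was not tested.

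The composite POU-SOX motif and the POU octamer were more frequent in desert peaks than in peaks at 10 to 200 kb, and the ESRRB motif was not. The composite POU-SOX motif, with a background of 0.325%, was held by 91 members, 0.585% (0.477 to 0.718), by 0.338% (0.300 to 0.381) of the peaks at 10 to 200 kb and by 0.202% of the desert windows. The desert share was the higher of the first 2 in 17 of the 19 autosomes. Among peaks in sequence that occurs once it was 0.867% (0.700 to 1.07) in deserts and 0.396% (0.351 to 0.448) at 10 to 200 kb, and it was higher in 18 of the 19 autosomes. Of the 91 members 83 lay in sequence that occurs once, and they were spread over 85 deserts. The octamer ATGCAAAT, which POU factors bind alone and which can share bases with the composite motif, was held by 5.45% of the members (5.10 to 5.82) against a background of 3.03% and 3.47% (3.34 to 3.60) at 10 to 200 kb. Of its 847 holders 496 were repeated. In sequence that occurs once the octamer shares were 3.67% (3.31 to 4.06) and 2.36% (2.25 to 2.48). At 2 to 9 copies they were 5.49% in deserts and 3.63% at 10 to 200 kb. With more copies the desert share was not the higher. It was 7.79% against 8.09% at 10 to 99 copies, 14.7% against 17.9% at 100 to 999, and 4.56% against 5.84% at 1000 or more. TCAAGGTCA, the motif of the nuclear receptor ESRRB, had a background of 0.629% and a desert share of 0.495% (0.397 to 0.619), and at 10 to 200 kb 0.656% (0.602 to 0.715).

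The YY1 motif AAGATGGCG was more frequent in desert peaks than nearer to the mark, and most of its holders were repeated. The background share was 2.01%, and 1095 members held it, 7.04% (6.65 to 7.46), against 2.14% (2.04 to 2.25) at 10 to 200 kb and 0.253% of the desert windows. The desert share was higher than that at 10 to 200 kb in all 19 autosomes. Of the 1095 holders 950 (86.8%) were repeated, their median width was 463 bp (442 to 486) and their median GC content 63.5%. The share rose with the number of copies, from 1.51% (1.29 to 1.78) at 1 copy to 37.96% (34.9 to 41.1) at 1000 or more copies. At 10 to 200 kb it was 0.435% (0.387 to 0.489) at 1 copy and 25.3% (23.5 to 27.3) at 1000 or more copies, so the desert share was the higher in both classes. The single-copy share was also the higher in deserts in all 19 autosomes.

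GGGCGTGG, bound by KLF factors, had a background of 3.13% and a desert share of 2.30% (2.07 to 2.54) against 2.70% (2.59 to 2.81) at 10 to 200 kb, and it was 12.2 times as frequent as in the desert windows. Of its 357 desert holders 246 were repeated. In sequence that occurs once the KLF shares were 1.16% (0.964 to 1.395) in deserts and 2.095% (1.99 to 2.21) at 10 to 200 kb. CACGTG, the E-box of basic helix-loop-helix factors, had a background of 3.93% and a desert share of 2.56% (2.32 to 2.82) against 3.57% (3.44 to 3.70) at 10 to 200 kb. Of its 398 desert holders 207 were repeated, and in sequence that occurs once the E-box shares were 2.00% (1.73 to 2.30) and 3.52% (3.38 to 3.66). TGANTCA, bound by AP-1, had a background of 9.68%, a desert share of 9.75% (9.29 to 10.2) and 11.1% (10.9 to 11.4) at 10 to 200 kb. In sequence that occurs once these AP-1 shares were 12.6% (11.95 to 13.28) in deserts and 12.4% (12.2 to 12.7) at 10 to 200 kb. GGAATG, bound by TEAD factors, had a background of 12.4%, a desert share of 13.6% (13.0 to 14.1) and 13.0% (12.8 to 13.3) at 10 to 200 kb. In sequence that occurs once the TEAD shares were 15.5% (14.8 to 16.2) in deserts and 13.9% (13.7 to 14.2) at 10 to 200 kb. AGATAAG, bound by GATA factors of other lineages, had a background of 1.88%, a desert share of 2.34% (2.12 to 2.59) and a share of 3.22% in the desert windows. At 10 to 200 kb the GATA share was 2.04% (1.95 to 2.14). In sequence that occurs once the GATA shares were 2.61% (2.31 to 2.95) in deserts and 2.12% (2.01 to 2.24) at 10 to 200 kb. GCGCATGCG, the motif of the promoter factor NRF1, had a background of 0.204% and was found in 2 members, 0.0129% (0.00353 to 0.0469), against 0.108% (0.0871 to 0.133) of the peaks at 10 to 200 kb.

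**Figure D4:**
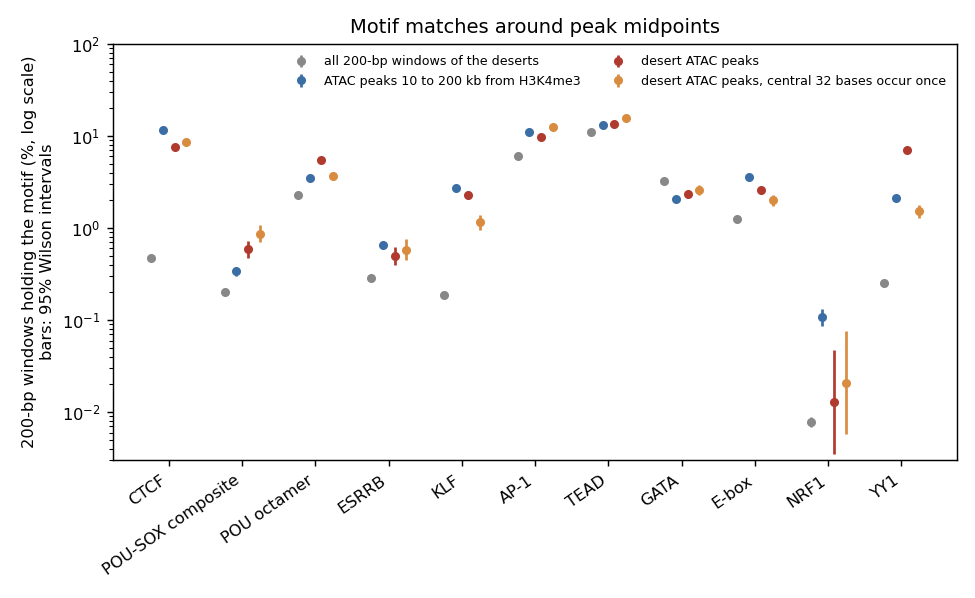
Share of 200-bp windows that hold each of 11 motifs (percent, log scale) with 95% intervals, for all windows of the deserts (grey), peaks at 10 to 200 kb from H3K4me3 (blue), desert peaks (red) and desert peaks whose central 32 bases occur once (orange). The red YY1 point at 7.04% lies above the blue one at 2.14%, and the red CTCF point at 7.54% lies below the blue one at 11.5%.

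Desert peaks lay mostly between genes, as did desert sequence. Of the 15548 members 11077 touched no gene of GENCODE M21, 71.2% (70.5 to 71.9), against 38.9% (38.6 to 39.1) of the peaks under 1000 bp within 200 kb of H3K4me3. Known desert sequence was between genes for 72.8% of its bases, and the remaining sequence for 44.8%. A further 24.7% of the members lay in introns only, and 4.04% touched an exon. A transcript start of any gene lay within 1 kb of 5.19% of the members (4.85 to 5.55), and of 8.27% (8.08 to 8.46) of the peaks at 10 to 200 kb. The median member lay 358 kb from the nearest start of a protein-coding gene, and 5303 members (34.1%) lay over 500 kb from any.

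The deserts held few protein-coding genes. Of the 20807 protein-coding genes of the autosomes 1343 had their start in a desert, 6.45%, which is the background for the families below. This gave 2.34 starts per Mb in deserts and 10.7 per Mb elsewhere. The rule keeps genes with an H3K4me3 peak at the start out of deserts, so it fixes part of this difference. Outside the deserts only 5658 of the 19464 coding genes lacked such a peak within 1 kb of the start. The background of 6.45% therefore includes many genes that could not lie in a desert. No protein-coding start lay in 971 of the 1192 deserts, and these held 11204 members (72.1%). Their density, 26.5 members per Mb, was close to the 28.9 per Mb of the 221 deserts with such a start. In 216 deserts the whole stretch lay inside the body of 1 protein-coding gene. Deserts make up 23.9% of the known sequence. The rule lowers the share of coding genes, so it sets part of their difference from other gene types. Many other gene types had a larger share of starts in deserts than coding genes. Among them were 34.2% (32.1 to 36.4) of the 1789 unprocessed pseudogenes, which arise by gene duplication. The shares were 20.4% (19.6 to 21.2) of the 8924 processed pseudogenes, 24.3% (22.2 to 26.6) of the 1442 snoRNA genes and 14.4% (13.5 to 15.4) of the 5209 lincRNA genes. Genes for snRNA (16.7%) and miRNA (8.96%) were also above coding genes. Per Mb, unprocessed pseudogenes had 1.07 starts in deserts and 0.646 elsewhere and snoRNA genes 0.612 and 0.599, while processed pseudogenes had 3.17 and 3.90 and lincRNA genes 1.31 and 2.45. Antisense genes, which lie on coding genes, were at 3.30% (2.71 to 4.01). Among segments of the immune receptors, 131 of 218 immunoglobulin V genes started in a desert, 60.1% (53.5 to 66.4). The T cell receptor V genes had 43 of 144, 29.9% (23.0 to 37.8), an interval that includes the desert share of the known sequence. None of the 70 T cell receptor J genes started in a desert.

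Chemosensory receptors made up the largest block of desert genes. Odorant and pheromone receptors of the nose (Olfr, Vmn1r and Vmn2r) accounted for 552 of the 1343 desert genes (41.1%). Of the 1128 olfactory receptor genes 436 had their start in a desert, 38.7% (35.9 to 41.5), in 25 deserts. Only 1 of the 1128 had an H3K4me3 peak within 1 kb of the start, so the rule sets part of the difference from the background. The shares were 69 of 208 for type 1 vomeronasal receptors, 47 of 121 for type 2 and 7 of 20 for the Mas-related receptors of sensory neurons. The bitter taste receptors had 1 of 35 genes in a desert and the trace amine receptors 0 of 15. The 25 olfactory deserts held 27.6 members per Mb and the 15 vomeronasal deserts 22.8 per Mb, beside 27.1 per Mb over all deserts. Their members were repeated in 51.2% (45.5 to 56.7) and 68.7% (62.8 to 74.1), and 82.5% and 80.7% of them lay between genes.

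Several families of skin, secretion and defence also had genes in deserts. Of the 11 Skint genes, a family named for the selection of T cells in the skin, 10 were in 1 desert. The cornified envelope proteins (Lce and Sprr), which build the skin barrier, had 26 of 36 genes in 1 desert, and the keratin-associated proteins of hair had 25 of 57 in 2 deserts. Keratins themselves had 0 of 53. Major urinary proteins, which carry pheromones, had 15 of 22 in 1 desert, prolactin-like hormones of the placenta 17 of 25 in 1 desert and secretoglobins 18 of 34 in 1 desert. The defensins, antimicrobial peptides, had 23 of 64 in 3 deserts, and the lectin-like receptors of killer cells 11 of 26 in 1 desert. The Speer genes of the testis had 6 of 10 in 6 deserts and the Prame-like genes 4 of 11. Serpins, inhibitors of proteases, had 17 of 60, UDP-glucuronosyltransferases of the liver 7 of 22 and carcinoembryonic antigen genes 5 of 28.

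Genes used by most cells and genes of development were outside the deserts. Ribosomal proteins (0 of 92), proteasome subunits (0 of 39), Hox genes (0 of 39), Sox genes (0 of 18) and forkhead genes (0 of 41) had no start in a desert, nor did protocadherins (0 of 67), cadherins (0 of 23) and GABA-A receptors (0 of 16). At most 1 kb separated an H3K4me3 peak from the starts of 83 of the ribosomal, 36 of the proteasome, 37 of the Hox, 18 of the Sox and 38 of the forkhead genes, so the rule that defines deserts fixes most of these counts of 0 and nothing is read from them. Potassium channels had 1 of 92, glutamate receptors 1 of 26, contactins 2 of 13, leucine-rich repeat synaptic proteins 2 of 16, cytochromes P450 7 of 100 and Zfp zinc finger genes 7 of 385. In all 24 of the 34 families had a start in a desert, and 16 had 25% or more of their genes there. The listed families covered 764 of the 1343 desert genes. A further 320 carried only a Gm number as symbol.

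**Figure D5:**
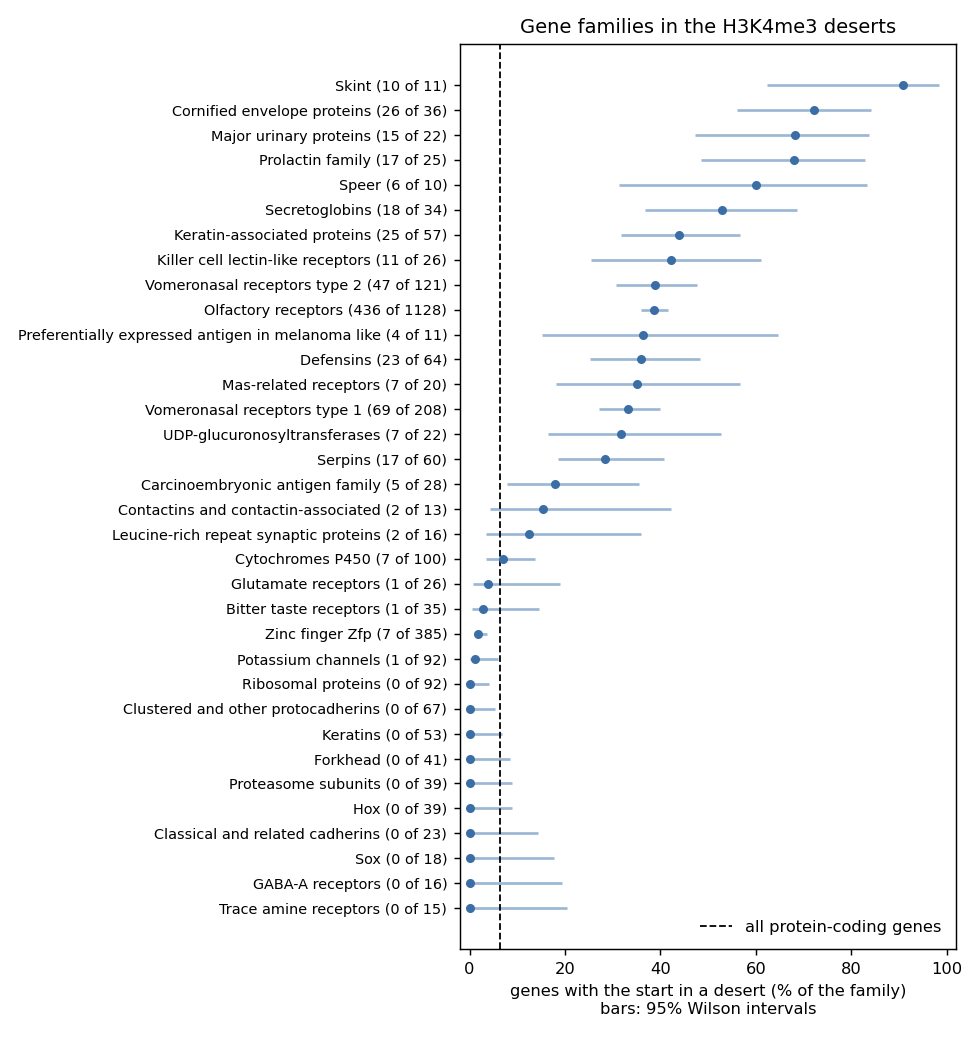
Share of the genes of each of 34 families whose start lies in a desert (percent, horizontal axis, with 95% Wilson intervals), with counts beside each name. The dashed line marks the 6.45% of all protein-coding genes, and 16 families lie at 25% or above. The line includes genes with H3K4me3 at the start, which the rule keeps out of deserts, so it is a low background for families without the mark.

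Desert peaks were rarely at the starts of these genes. Of all autosomal protein-coding genes 50.2% had an ATAC peak under 1000 bp within 1 kb of the start, and of the 1343 desert genes 119 did, 8.86% (7.46 to 10.5). Outside the deserts 5658 coding genes also lacked an H3K4me3 peak within 1 kb of the start, and 21.8% of these had such an ATAC peak. Many of the 119 desert genes, most of them with only a Gm number, lie in the first desert of chromosome 14 or in 1 desert of chromosome 2 with Zfp genes. Repeated members made up 288 of 301 in the former and all 73 in the latter. Among the desert receptors 11 of the 436 olfactory genes, 1 of the 47 type 2 vomeronasal genes (Vmn2r12) and 0 of the 69 type 1 genes had a member there. A member covered the start of Olfr995, and the nearest ones lay 14 bp from Olfr976, 54 bp from Olfr1532-ps1, 327 bp from Olfr1499 and 568 bp from Olfr1215. Of the skin barrier genes Sprr1a had a member on its start, Sprr2a3 and Lce1g had 1 within 1 kb. Defb3, a defensin, had a member of 189 bp on its start, and the member nearest to Defb1 was 543 bp wide and 103 bp away. No member lay within 1 kb of a desert start of the Mup, Skint, Prl, Scgb, Krtap or Klr genes.

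Some desert gene starts with a member belong to other roles. Lrrtm4 and Slitrk6, which organise synapses, each had a member on the start, 303 and 248 bp wide, at 1891 and 919 kb from H3K4me3. Cntnap5a, of the contactin-associated family, had 1 of 579 bp at 913 kb, Serpinb8 1 of 652 bp at 792 kb, and Ceacam13 1 of 291 bp within 1 kb of its start. Of the 7 desert Zfp genes 5 had a member on the start, namely Zfp965, Zfp966, Zfp967, Zfp969 and Zfp973, with widths of 630, 642, 656, 408 and 690 bp. These 5 genes lie in 1 desert of chromosome 2.

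A few deserts stood apart in density. The first desert of chromosome 14 (chr14:1-7528392) was the longest by known sequence (4.53 Mb) and had the most members, 301, or 66.5 per Mb. The first known base of this chromosome is 3000001. The desert holds 96 protein-coding starts, of which the first are Gm2888, Gm2897, Gm10340, Gm5795 and D830030K20Rik, and 288 of its members were repeated. Without it the deserts held 26.8 members per Mb, 37.3% of members were repeated, and 5.99% of coding starts lay in deserts. The densest desert with 500 kb or more of known sequence was chr8:54981011-55740013, with 58 members in 0.537 Mb, 108 per Mb, of which 43 were repeated, and with no protein-coding start. The Zfp desert chr2:175376534-176873607 held 73 members, 63.6 per Mb, all of them repeated, with a median width of 322 bp and 20 protein-coding starts. In chr17:40089782-40654017, with Pgk2, Crisp3, Crisp1 and the pheromone peptides Esp8, Esp6, Esp4 and Esp3, 37 members gave 65.6 per Mb, and 15 of them were repeated.

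The desert over the immunoglobulin heavy chain variable segments was dense without being mostly repeated. It lay at chr12:114072888-115405957, held 61 immunoglobulin V genes and no start of the type protein-coding, and had 89 members, 66.8 per Mb. Their median width was 216 bp and 33 of them were repeated. Over the 5 deserts with immunoglobulin V segments the density was 49.4 members per Mb, and 12.8% (8.67 to 18.4) of the members held the CTCF motif. The motif share was higher still in the 2 deserts of the Mup and Skint genes, 29.3% (20.2 to 40.4) of 75 members, of which 66.7% were repeated. No match was found among the 48 members of the secretoglobin desert (upper Wilson limit 7.41%).

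Other named deserts held between 17.6 and 32.4 members per Mb. On chromosome 14 the desert at chr14:80371177-84242201 had 78 members in 3.87 Mb and no coding start. The vomeronasal desert chr7:20192601-23881246 had 64 members in 3.64 Mb, 93 coding starts that include Vmn1r95, Vmn1r100, Vmn1r101 and Vmn1r103, and 54 repeated members. The desert chr6:78180371-81710138 had 99 members in 3.53 Mb and holds the regenerating islet genes Reg3b, Reg3d, Reg3a, Reg2, Reg1 and Reg3g beside Gm20594 and Lrrtm4. Its neighbour chr6:73569168-77042196 had 79 members and 1 coding start, Gm9008. Without a coding start, chr12:92049904-95237601 had 86 members (27.0 per Mb) and chr1:140923078-143500320 had 82 (32.4 per Mb). The 2 last had 33.7% and 37.8% of repeated members.

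Members lay in the body of 590 protein-coding genes, of which 329 started outside a desert. These members numbered 3095 (19.9%). The 10 genes with most members, 354 in all, were each over 1000 kb long. Macrod2, a hydrolase of ADP-ribose, held 48, the lipoprotein receptor gene Lrp1b 47, the protocadherin of hair cells Pcdh15 41 and the contactin Cntn5 38. Ptprd, a receptor phosphatase of synapses, held 33, Csmd1 32, the glypican Gpc5 32, the cadherin Cdh13 28, the neurexin Nrxn3 28 and Csmd3 27. Lsamp, of a family of neuronal adhesion proteins, also held 27 and tied with Csmd3 for the last place. Of these 10 only Nrxn3 had its annotated start in a desert, 361 kb from H3K4me3, and the other starts lay at most 0.157 kb from a peak.

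The members farthest from H3K4me3 were all in the first desert of chromosome 14. The farthest, chr14:3015213-3015773, lay 4713 kb away, was 561 bp wide and had 62.5% GC, and its central 32 bases occur 20 times. The next 4 lay at chr14:3032637-3032751, chr14:3033948-3034082, chr14:3036686-3036866 and chr14:3039635-3039891, with 2, 2891, 3 and 887 copies. The first 3 of these lie in introns of Gm2888, and the last holds the CTCF motif and is the first CTCF window printed above. Outside this desert the farthest member was chr14:82290430-82291160, 2119 kb from H3K4me3 and 2152 kb from the start of Pcdh17, with 66.5% GC and 1 copy. The 5 widest members were chr9:93378572-93379570 (705 copies), chr13:65780944-65781939 (996 bp, 9 copies, in an intron of the lincRNA gene Platr2), chr14:124446120-124447113 (994 bp, 1 copy, in an intron of Fgf14), chr16:82091015-82092007 (993 bp, 1807 copies) and chr1:122772706-122773696 (991 bp, 13 copies).

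Both limits of the selection cut through a continuous range. At 200 to 210 kb from H3K4me3 there were 730 members with a median width of 237 bp, and at 190 to 200 kb 783 peaks with 239 bp lay just outside. The nearest member was 200044 bp from the mark. In the last 100 bp of width below the limit there were 186 members with a median GC content of 64%. In the first 100 bp above it 125 peaks over 200 kb from H3K4me3, with 65%, were left out.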

How the data were processed

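Per the study's methods, the authors aligned the ATAC-seq reads (Bowtie 1.1.2, mm10), dropped mitochondrial and duplicate reads using SAMtools, moved read ends by 4 bp for Tn5 and called peaks with MACS2 2.1.1.20160309. Pooled peaks found in both replicates were kept with bedtools 2.27.1. The deposited ATAC list holds positions only. H3K4me3 peaks came from the ENCODE histone pipeline, and the deposited list also holds fold enrichment (a ratio) and −log10 of p and q. Only positions and −log10 q were used here. Library depth is unknown.

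Deserts, distances (gap between peak edges) and densities per known (non-N) base were computed with Python 3.11.15, numpy 2.4.6 and pandas 2.3.3, and were tested on simulated data and against bedtools 2.31.1. Genes are GENCODE M21 and sequences RefSeq GRCm38.p6, the mm10 primary build. GC and motifs were read in 200 bp around each midpoint, and copies of the central 32 bases were counted on chromosomes 1 to 19, X and Y. Shares have 95% Wilson intervals and medians 95% binomial order-statistic intervals (scipy 1.17.1).

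No test was run, since each list stands for both replicates and regions are not replicates. Groups follow the labels (ATAC-seq, H3K4me3 ChIP-seq). Members, families and motifs were chosen with earlier results of these data known. Named were the 5 longest deserts, the 5 with most members, the 5 densest with at least 500 kb known, the 5 farthest and 5 widest members, the 10 genes with most members, and family genes with a member within 1 kb of the start. Alternatives changed the distance limit, the H3K4me3 threshold, the width filter, the chromosomes, the distance rule, the motif window and the gene set. Of the sequence windows 1 with the POU-SOX motif is not reported here. The chromatin contact and input samples were not used here.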

Additional observations from a re-analysis of the deposited data

How the results depend on the processing

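Moving the distance limit from 200 kb to 100, 300 or 500 kb changed the number of members to 27863, 9988 and 4964, the density per Mb to 30.7, 25.4 and 24.1, the share between genes to 64.3%, 75.6% and 80.0%, and the share of coding starts to 10.8%, 4.46% and 2.64%. The CTCF share became 8.10% at 100 kb and 6.67% at 500 kb, and the median width 245 bp at 500 kb. The ratio of densities moved beyond its interval for none of these 3 limits, at 0.329 to 0.333. When −log10 q had to reach 5 in the H3K4me3 list, the density was 27.7 per Mb and the coding share 7.02%, and at 20 they were 30.1 and 9.66%, the ratio 0.346 and the share between genes 69.3%. All widths gave 246 bp, 27.8 per Mb and a ratio of 0.323, and widths of at least 150 bp gave 273 bp, 22.9 per Mb and a CTCF share of 6.89%. With X the density was 25.9, the ratio 0.324, the share between genes 72.2% and the coding share 7.03%. Windows of 100 and 400 bp gave CTCF shares of 6.44% and 8.46%, and protein-coding genes alone a share between genes of 80.1%. Added after seeing the data were 2 alternatives. Without the first desert of chromosome 14 the coding share was 5.99%, and the density beyond 1000 kb was 21.5 in place of 25.5 per Mb. With peaks whose central 32 bases occur once there were 9571 members, 225 bp wide, at 16.7 per Mb and a ratio of 0.237, with 67.1% between genes and a CTCF share of 8.59%. The other 43 of the 84 alternative values stayed within 1.5 times (counts) or within the 95% interval, among them those with midpoints. Merging peaks changed nothing, since the nearest lie 96 bp apart. No paired analysis was possible because 1 list per assay covers both replicates, and leaving out a replicate could not be run for the same reason. Depth is unknown, and peaks under the callers' thresholds are not seen.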

Other observations

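Wide peaks and the X chromosome were outside the selection. On the autosomes 422 ATAC peaks of 1000 bp or more lay over 200 kb from H3K4me3, with a median width of 1179 bp and a median GC content of 65.0%. Of these 88.9% were repeated in their central 32 bases and 72.99% lay between genes. The CTCF motif was held by 0.474% of them (95% Wilson interval 0.130 to 1.71), and no composite POU-SOX motif was found, with an upper Wilson limit of 0.902%. The 200-bp window searched covers only the middle of these peaks. On the X chromosome 1220 of 4926 peaks under 1000 bp lay over 200 kb from H3K4me3 (24.8%), at 16.5 per Mb against 41.4 per Mb in the rest of the chromosome. Deserts made up 45.2% of its known sequence, and the median width of the peaks in them was 257 bp.

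Several groups of members lay very close together (windows of 50 kb, chosen after the values were seen). The densest was chr8:20660556-20706972, near Gm21119, with 26 members in 46.4 kb, all 26 of them repeated. The members at chr5:14903668-14953303, over Gm9758 and Speer4e, numbered 19, of which 18 were repeated. In contrast, chr1:60818501-60868735, whose first member lies nearest to Ctla4, an inhibitory receptor of T cells, held 14 members with a median width of 354 bp, of which 2 were repeated.

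Some long deserts were sparse (the 5 least dense with at least 1 Mb known, chosen after the values were seen). The lowest density was 6.21 per Mb at chr5:93469763-95774015, with 14 members in 2.25 Mb and 26 coding starts. At chr7:60823141-62008937 there were 10 members in 1.19 Mb and no coding start, and 27 gene starts of other types.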
